A study of Mus musculus with 6 samples.

Results

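The genes described here encode the nuclear subunits of the mitochondrial respiratory chain and of ATP synthase. They were chosen by symbol, as genes named Nduf followed by a, b, c, s or v and a number, Sdha to Sdhd, the Uqcr genes, Cyc1, Cycs, the Cox4 to Cox8 genes and the Atp5 genes, with each array probe named through its RefSeq transcript. In the RefSeq annotation 87 symbols fitted, and 85 of them had a probe on the array, among 20659 named genes in all. Ndufb1 and the pseudogene Cox6c2 had no probe matched by accession. Of the 85, 83 passed the filter on dim probes and were tested among 15535 genes. Cox7b2 and Cox8c did not pass, because their probes were well above background on 0 of 6 arrays. The tested members were 36 of complex I, 4 of complex II, 9 of complex III, 1 cytochrome c (Cycs), 16 of complex IV and 17 of ATP synthase. Ndufa4 was counted with complex I by its symbol, although the protein is now known as a subunit of complex IV. Cox7a2l, counted with complex IV, is known for joining complexes into supercomplexes.

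Messenger RNA was measured in MC3T3-E1 cells, an established mouse line of bone-forming precursor cells, after 3 days in 24-well plates. Both groups were grown on a metal scaffold: FeMnSi is the original scaffold, named for iron, manganese and silicon (n = 3 arrays), and De-HA is the scaffold after dealloying and coating with a bioactive material (n = 3 arrays). There was no culture without a scaffold, so the differences are between the scaffolds and not against cells grown without one. The labels do not say whether the 3 replicates of a group came from separate cultures. If they did not, the p-values cover technical spread alone.

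The respiratory chain sits in the inner mitochondrial membrane. Complex I (NADH dehydrogenase) and complex II (succinate dehydrogenase) pass electrons to ubiquinone, complex III passes them on to cytochrome c, and complex IV (cytochrome c oxidase) hands them to oxygen. Complexes I, III and IV pump protons, and ATP synthase uses the return of these protons to make ATP. Some subunits of the larger complexes are encoded in the mitochondrial DNA and are not described here. In the osteoblast lineage, cells can make ATP by glycolysis as well as by respiration.

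The arrays differed little in quality. The 75th percentile of the signal was 582 to 720, 63.5% to 74.4% of probes were well above background, and no spot was saturated. All 10 markers of the osteoblast line, among them Col1a1, Runx2 and Sp7, were well above background on all 6 arrays. The files give 2 scan times, with De-HA 1, 2 and 3 and FeMnSi 1 in scan 1 and FeMnSi 2 and 3 in scan 2. Scan is therefore partly confounded with the scaffold, and FeMnSi 1 is the sole array of its group that shares a scan with De-HA. Between whole arrays, FeMnSi 1 correlated at 0.9907, 0.9932 and 0.9934 with De-HA 1, 2 and 3. With FeMnSi 2 and 3 it correlated at 0.9894 and 0.994. FeMnSi 2 and FeMnSi 3 correlated with each other at 0.9964. Values below are log2 of the processed signal over the 75th percentile of the same array, so that 0 is the signal at that percentile. Differences are De-HA minus FeMnSi on this log2 scale, with the standard error (SE) and the Benjamini-Hochberg adjusted p of limma over all 15535 genes. The threshold was an adjusted p of 0.05.

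Few of the subunit genes passed the test between the scaffolds. Ndufa1 of complex I and Cox4i2 of complex IV rose on De-HA, and Cox6a2 of complex IV fell, while the remaining 80 members did not pass the test. Over all genes tested, 6.46% rose and 4.29% fell, so that the 2 and 1 members called out of 83 are no more than that background. At an unadjusted p under 0.05, 12 members were higher and 2 were lower on De-HA, against 22.8% and 10.7% of all genes. The 3 De-HA arrays lay all above the 3 FeMnSi arrays for 16 members (19.3%) and all below for 3 members (3.61%), against 25.4% and 13.7% of all genes. In each of these counts the members' share was below that of all genes, a difference that was not tested. In bulk RNA, fewer cells of a type and less RNA per cell cannot be told apart.

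The median difference of the 83 members was 0.098, and that of all genes was 0.10. The difference was above 0 for 64 members and below 0 for 19. That split follows the scaling of the arrays. With quantile normalization the members' median was -0.071 against -0.01 for all genes, with 24 members above 0 and 59 below, and 40 of the 83 changed sign. Calls over all genes moved with it, from 1003 higher and 666 lower to 632 higher and 975 lower. In scan 1 alone the median was 0.016 for the members and 0.051 for all genes. No shared direction of the respiratory genes is therefore given here, and only differences relative to all genes are read.

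**Figure D1:**
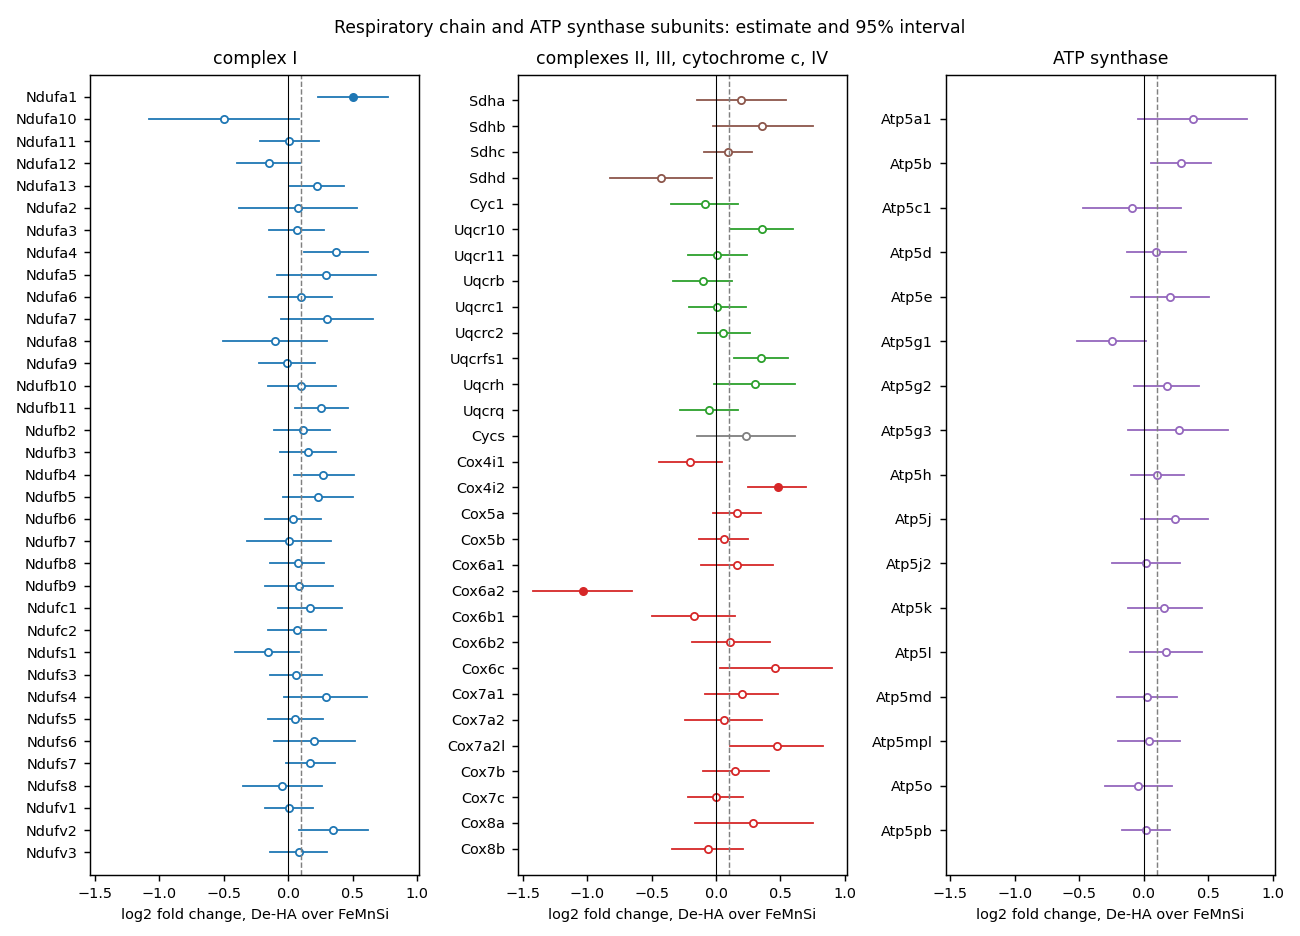
Estimated log2 difference, De-HA over FeMnSi, of 82 tested members with 95% intervals from limma (n = 3 arrays a group), by complex. Filled points are the 3 members past the adjusted p of 0.05, Ndufa1, Cox4i2 and Cox6a2. The dashed line is the median of all genes, 0.10, and most intervals cross it.

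The intervals of the main fit, which cover neither the scan nor the choice of scaling, were narrow for most members. For 81 of the 83 (97.6%, against 87.6% of all genes) the 95% interval lay within 1 log2 unit of 0 in both directions, so a change of more than 2-fold lay outside it. For 55 members it lay within 0.5, which is 1.41-fold. The members' SE had a median of 0.11 and ran from 0.077 to 0.24. Of the member probes, 68 of 83 were in the brightest of 4 equal classes of genes by mean signal, which is a property of the probes as well as of the transcripts. In that class the median difference was 0.15 for all genes and 0.10 for the members, and with quantile normalization -0.015 and -0.082.

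Array by array, the members' median deviation from each gene's own mean was -0.0025, 0.12 and 0.051 on De-HA 1, 2 and 3. It was 0.028, -0.082 and -0.096 on FeMnSi 1, 2 and 3. FeMnSi 1 thus lay above De-HA 1, and the groups overlapped. De-HA 2 held the highest value of the 6 arrays for 40 of 83 members (48.2%), against 17.0% of all genes. FeMnSi 2 held the lowest value for 34 members (41.0%), against 33.5% of all genes. FeMnSi 3 held the highest value for 1 member.

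**Figure D2:**
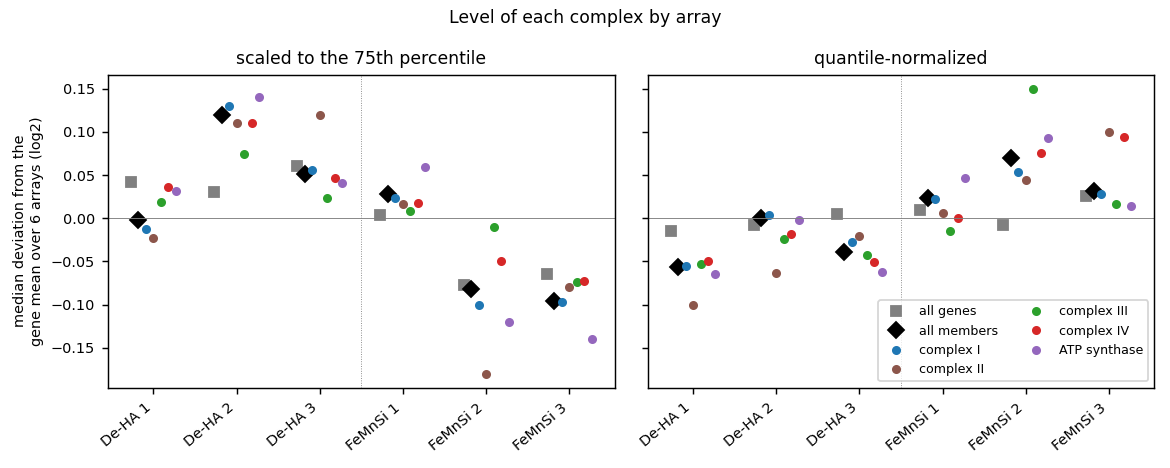
Median deviation from the gene's mean over the 6 arrays (log2), for all genes, all members and the complexes other than cytochrome c, by array, after scaling to the 75th percentile (left) or quantile normalization (right). On the left De-HA 2 stands highest for the members at 0.12 and FeMnSi 3 lowest at -0.096. On the right the same members lie at 0.00047 and 0.031 on these arrays.

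In complex I, Ndufa1 was the member past the threshold. Ndufa1 encodes a small accessory subunit of the membrane arm, from a gene on chromosome X, that complex I needs for its assembly. Its level was 4.90, 4.97 and 4.97 on De-HA and 4.66, 4.29 and 4.39 on FeMnSi. The groups did not overlap, and FeMnSi 1 stood closest to De-HA. The difference was 0.50 (SE 0.11, 1.42-fold), with an adjusted p of 0.0399 by limma. Within scan 1 it was 0.29, and with the scan as a block the adjusted p was 0.24. With quantile normalization it was 0.27, with an adjusted p of 0.092.

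The promoter stretch of Ndufa1 is shown with those of 4 other members that carry letters of transcription factor motifs known from respiratory genes. NRF1, nuclear respiratory factor 1, and the ETS factor GABP are known activators of such genes. Each stretch is the 150 bases before the transcription start in RefSeq, build GRCm38.p6, written 5′ to 3′ on the strand of the gene, with matches in capitals. In Ndufa1 (chrX:37191239-37191388, minus strand) none of the searched motifs was found. Cycs (chr6:50566570-50566719, minus strand), Sdhb (chr4:140961121-140961270, plus strand) and Atp5k (chr5:108434400-108434549, minus strand) hold the NRF1 letters. Their match begins 60, 54 and 50 bases before the start, and in Atp5k matches on both strands overlap. Atp5h (chr11:115419920-115420069, minus strand) holds the ETS letters on the opposite strand, 38 bases before the start.
Ndufa1: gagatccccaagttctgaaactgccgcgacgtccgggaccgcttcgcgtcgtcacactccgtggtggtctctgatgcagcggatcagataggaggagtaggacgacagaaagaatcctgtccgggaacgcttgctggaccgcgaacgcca
Cycs: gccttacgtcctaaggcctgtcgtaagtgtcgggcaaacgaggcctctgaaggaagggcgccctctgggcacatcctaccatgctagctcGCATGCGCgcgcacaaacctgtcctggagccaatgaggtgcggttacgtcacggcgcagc
Sdhb: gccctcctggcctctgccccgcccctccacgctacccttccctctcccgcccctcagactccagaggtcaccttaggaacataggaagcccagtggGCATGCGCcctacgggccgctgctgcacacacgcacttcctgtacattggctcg
Atp5k: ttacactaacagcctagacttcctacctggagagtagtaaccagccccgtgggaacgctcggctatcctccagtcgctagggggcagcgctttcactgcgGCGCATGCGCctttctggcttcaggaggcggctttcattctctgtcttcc
Atp5h: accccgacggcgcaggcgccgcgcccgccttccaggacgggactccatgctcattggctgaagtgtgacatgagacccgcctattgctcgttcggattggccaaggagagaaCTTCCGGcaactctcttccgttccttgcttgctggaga

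A RefSeq window was found for 68 of the 83 tested members, and was not found for the other 15, which include Cox4i2 and Cox6a2. The motifs were searched on both strands in the 250 bases before the start. The NRF1 letters GCGCATGC (GCATGCGC on the other strand) were in 9 members (13.2%) and in 2.32% of the windows of 27025 genes. The 9 were Ndufa6, Ndufa8, Ndufa11, Sdhb, Cycs, Cox6a1, Atp5g2, Atp5k and Atp5l. The ETS letters CCGGAAG were in 11 members (16.2%) and in 7.05% of all windows. The YY1 letters AAGATGG were in 0 of the 68 members, against 4.53% of all windows, but in the first 50 bases after the start they were in 8 members (11.8%), against 1.89%. YY1 is a factor known to bind near the start of many housekeeping genes. Members with the NRF1 letters had a median difference of 0.16 (from -0.10 to 0.36), and the other 59 had 0.10. With quantile normalization these medians were -0.05 and -0.06. Members with the ETS letters had a median of 0.06, and those without 0.15. After quantile normalization they stood at -0.16 and -0.04. In the first 50 bases after the start the ETS letters were in 7 members (10.3%), against 2.28% of all windows. Matches after the start were not counted in these splits. A match of letters does not show binding, and no site was measured.

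The 7 core subunits of complex I that carry its electron path had a median difference of 0.0035, and of -0.086 with quantile normalization. Ndufv1, which holds the flavin where NADH is oxidised, was at 3.64, 3.68 and 3.72 on De-HA and 3.68, 3.71 and 3.66 on FeMnSi. The groups overlapped, and the difference was 0.0035 (SE 0.078). Ndufv2, its neighbour with an iron-sulfur cluster, was at 4.20, 4.22 and 4.23 on De-HA and 4.08, 3.72 and 3.79 on FeMnSi. The groups were apart, but the difference of 0.35 did not pass (SE 0.11, adjusted p 0.0906 by limma), and it was 0.13 within scan 1. Ndufs1 (-0.16), Ndufs3 (0.056), Ndufs7 (0.17) and Ndufs8 (-0.048) hold or flank the iron-sulfur clusters, and none of these 4 passed.

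The 29 accessory subunits, which surround this core, had a median of 0.098, near the 0.10 of all genes, and 25 were above 0. With quantile normalization the median was -0.043, and within scan 1 it was 0.039, so no direction is read from the split. The groups were apart for 6 of them, Ndufa1, Ndufa4, Ndufa13, Ndufb4, Ndufb5 and Ndufb11, all higher on De-HA. With Ndufv2 and Ndufs7 this made 8 of 36 complex I members (22.2%), near the 25.4% of all genes. Ndufa4 was at 5.43, 5.66 and 5.58 on De-HA and 5.31, 5.08 and 5.17 on FeMnSi, a difference of 0.37 (SE 0.10, adjusted p 0.0656 by limma). Ndufa10 had the widest spread. Its level was -0.089, -0.75 and -0.72 on De-HA and -0.14, 0.39 and -0.31 on FeMnSi, so De-HA 1 lay within the FeMnSi range. The difference was -0.50 (SE 0.24) and did not pass.

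Complex II is made wholly of nuclear subunits and also serves the citric acid cycle. None of its 4 genes passed, and the sign was not the same in all. Sdhb, the iron-sulfur subunit, was at 4.41, 4.73 and 4.54 on De-HA and 4.5, 3.94 and 4.16 on FeMnSi. Sdhd, a membrane anchor, was at 2.61, 2.48 and 2.40 on De-HA and 2.60, 3.24 and 2.93 on FeMnSi. In both genes FeMnSi 1 lay within the De-HA range and FeMnSi 2 lay farthest from it. The differences were 0.36 (SE 0.16) for Sdhb and -0.43 (SE 0.17) for Sdhd, with adjusted p of 0.163 and 0.129 by limma. Within scan 1 they were 0.065 and -0.10. Sdha, the flavin subunit, differed by 0.19 and Sdhc, the other anchor, by 0.091, and neither passed. The second probe of Sdhb gave 0.014, and that of Sdhc gave -0.21.

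In complex III, 0 of 9 members passed the threshold in limma, and 2 had an unadjusted p under 0.05. Uqcrfs1, the Rieske iron-sulfur protein, was at 3.94, 4.11 and 4.01 on De-HA and 3.74, 3.59 and 3.68 on FeMnSi. The groups were apart by a difference of 0.35 (SE 0.09, 1.27-fold), with an adjusted p of 0.0543 by limma. That gene was past the threshold when probes had to be well above background on all 6 arrays (adjusted p 0.0417), a filter under which fewer genes were tested. Uqcr10, a small subunit, was at 1.22, 1.36 and 1.23 on De-HA and 1.05, 0.79 and 0.91 on FeMnSi, a difference of 0.36 (adjusted p 0.0682). Its other probes gave -0.36 and 0.27, so the probes of Uqcr10 disagree in sign. Uqcrh, the hinge protein, differed by 0.30 (SE 0.13). The core proteins Uqcrc1 and Uqcrc2 and the cytochrome subunit Cyc1 differed by 0.01, 0.057 and -0.088.

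Cycs, the mobile electron carrier, was at 5, 5.31 and 5.18 on De-HA and 5.20, 4.64 and 4.97 on FeMnSi. The groups overlapped, with FeMnSi 2 lowest. The difference was 0.23 (SE 0.16, adjusted p 0.337 by limma), and both other probes of the gene gave -0.13.

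Complex IV held the called members of opposite sign. Cox4i2 encodes the form of subunit 4 that is known from lung and from cells at low oxygen, in place of the common form Cox4i1. Cox4i2 was at 1.16, 1.11 and 0.96 on De-HA and 0.64, 0.51 and 0.65 on FeMnSi. All De-HA arrays stood above all FeMnSi arrays, and FeMnSi 1 lay among its group. The difference was 0.48 (SE 0.095, 1.39-fold), with an adjusted p of 0.029 by limma. It was 0.44 within scan 1 and 0.42 with quantile normalization (adjusted p 0.042), but with the scan as a block the adjusted p was 0.163. Median scaling gave 0.39 and an adjusted p of 0.0642.

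Cox4i1 was at 3.35, 3.27 and 3.24 on De-HA and 3.38, 3.65 and 3.42 on FeMnSi. The groups were apart in the opposite direction to Cox4i2, with FeMnSi 1 only just above De-HA 1. The difference was -0.20 (SE 0.10) and did not pass (adjusted p 0.206 by limma), although Cox4i1 passed with normexp background correction, at -0.41. The log2 ratio of Cox4i2 to Cox4i1, set to 0 at the FeMnSi mean, was 0.70, 0.73 and 0.60 on De-HA and 0.14, -0.25 and 0.11 on FeMnSi. The shift of 0.67 (SD 0.065 and 0.22, n = 3 each, 1.6-fold) was 0.54 within scan 1 and 0.80 with quantile normalization. A ratio within an array does not depend on the scaling to a percentile, and no test was made of it.

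Cox6a2 encodes the form of subunit 6a known from heart and skeletal muscle, where Cox6a1 is the common form. Cox6a2 was at -2.71, -2.27 and -2.86 on De-HA and -1.66, -1.45 and -1.64 on FeMnSi. The groups were far apart relative to their spread, and FeMnSi 1 lay with the other FeMnSi arrays. The difference was -1.03 (SE 0.16, 2.04-fold lower), with an adjusted p of 0.0157 by limma. It was -0.96 within scan 1, -1.08 with quantile normalization and -0.68 with normexp background correction. With the scan as a block the adjusted p was 0.112. The probe is dim, with a lowest signal of 80.4, but it was well above background on all 6 arrays.

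Cox6a1 was at 6.05, 6.29 and 6.21 on De-HA and 6.19, 5.86 and 6 on FeMnSi, with overlap, and differed by 0.16 (SE 0.12). The ratio of Cox6a2 to Cox6a1 was lower on De-HA by 1.20 log2 units, or 2.29-fold, with the groups apart. It was -0.95 within scan 1 and -0.48 with normexp background correction. Among muscle markers, Myod1, a transcription factor of muscle precursors, rose on De-HA by 1.12 (SE 0.24, adjusted p 0.035 by limma), opposite in sign to Cox6a2, and with the scan as a block the adjusted p of Myod1 was 0.238. Myog, Ckm and Actc1, which mark differentiated muscle, were well above background on 0 arrays. The summed signal of the 3 muscle markers tested was 0.22 to 0.296 of the 75th percentile on De-HA and 0.104 to 0.169 on FeMnSi. Besides Myod1 these were Myh6 and Tnnt2, which did not pass (adjusted p 0.555 and 0.249 by limma). Myh6 and Tnnt2 were well above background on 5 and 3 of 6 arrays. The part of the muscle markers in the Cox6a2 result was not tested.

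**Figure D3:**
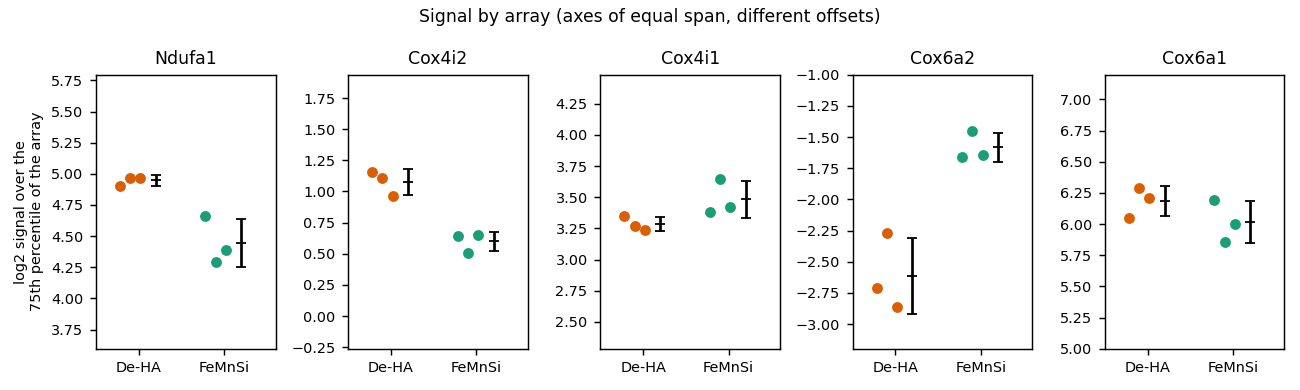
Log2 signal over the 75th percentile of the array for Ndufa1 and both forms of subunits 4 and 6a of complex IV, 1 point per array, with mean and SD (bars, n = 3) beside the points. The panels span equal ranges at different offsets, since levels of different probes are not compared. Cox4i2 is higher by 0.48 and Cox6a2 lower by 1.03 on De-HA.

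The other tissue-restricted forms of complex IV did not pass. Cox7a1, the muscle form of subunit 7a, was at -4.12, -4.30 and -3.90 on De-HA and -4.31, -4.23 and -4.37 on FeMnSi, a difference of 0.20. Cox6b2, known from testis, differed by 0.11, and the muscle form Cox8b by -0.063. Cox8b is near the floor of the arrays, since it was well above background on 3 of 6. The ratios of Cox6b2 to Cox6b1, Cox7a1 to Cox7a2 and Cox8b to Cox8a shifted by 0.29, 0.14 and -0.36, and in each the groups overlapped. So of the 5 tissue-restricted forms, 1 rose, 1 fell and 3 did not pass, where 6.46% of all genes rose and 4.29% fell. With the scan as a block Cox4i2 and Cox6a2 did not pass either (adjusted p 0.163 and 0.112 by limma).

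**Figure D4:**
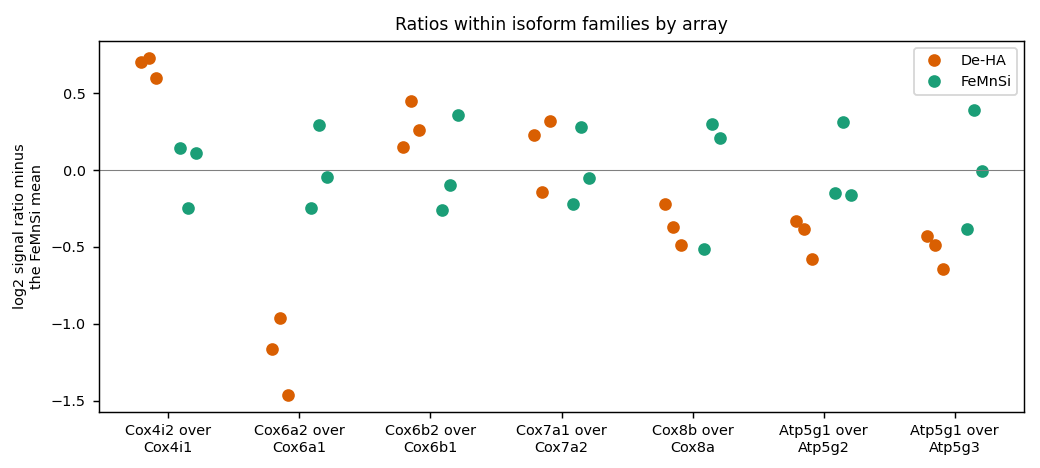
Log2 signal ratio of 2 isoforms within each array, minus the FeMnSi mean of that ratio, 1 point per array. For Cox4i2 over Cox4i1 the De-HA arrays lie above all FeMnSi arrays, and for Cox6a2 over Cox6a1 and both Atp5g1 ratios below them. In the remaining ratios the groups overlap.

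The 11 common subunits of complex IV had a median difference of 0.15, and none passed. That median was -0.091 with quantile normalization and -0.0072 within scan 1. Cox7a2l was at 6.19, 6.37 and 6.44 on De-HA and 6.14, 5.61 and 5.84 on FeMnSi, with the groups narrowly apart. The difference was 0.47 (SE 0.15, adjusted p 0.0871 by limma), and 0.19 within scan 1. Cox6c, a small membrane subunit, differed by 0.46, but FeMnSi 1 at 5.17 lay within the De-HA range of 5.16 to 5.32, and the value within scan 1 was 0.079. Cox5a and Cox5b, subunits on the matrix side, differed by 0.16 and 0.061. Cox7b differed by 0.15, and Cox6b1 by -0.17. Probes of Cox8a gave 0.29 and -0.16 and those of Cox7c gave -0.0036, 0.077 and 0.50.

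In ATP synthase, 0 of 17 members passed the threshold in limma, and 1 had an unadjusted p under 0.05. The 5 subunits of the F1 head, where ATP is made, had a median of 0.20, against 0.10 for all genes. It was -0.0097 with quantile normalization and -0.037 within scan 1. Atp5b, the catalytic beta subunit, was at 6.08, 6.19 and 6.13 on De-HA and 5.98, 5.74 and 5.81 on FeMnSi. The groups were apart by 0.29 (SE 0.096, adjusted p 0.0961 by limma), but the difference was -0.056 with quantile normalization. Atp5a1, the alpha subunit, was at 4.72, 5.29 and 5.25 on De-HA and 4.88, 4.51 and 4.74 on FeMnSi, where De-HA 1 lay within the FeMnSi range. Its difference was 0.38 (SE 0.18). The gamma, delta and epsilon subunits Atp5c1, Atp5d and Atp5e differed by -0.089, 0.099 and 0.20.

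Subunit c forms the rotating ring, and the genes Atp5g1, Atp5g2 and Atp5g3 encode the same mature protein. Atp5g1 was at 3.25, 3.37 and 3.09 on De-HA and 3.46, 3.63 and 3.37 on FeMnSi. The groups did not overlap, although De-HA 2 and FeMnSi 3 printed alike at 3.37. The difference was -0.25 (SE 0.11, adjusted p 0.167 by limma), and with normexp background correction it was -0.46 and past the threshold. Atp5g2 and Atp5g3 differed by 0.18 and 0.27, with overlap. The ratio of Atp5g1 to Atp5g2 shifted by -0.43 and that to Atp5g3 by -0.52, with the groups apart. Within scan 1 these shifts were -0.28 and -0.14. The 9 stalk and membrane subunits had a median of 0.038, and of -0.15 with quantile normalization. Atp5j, coupling factor 6 of the stalk, differed by 0.24 (adjusted p 0.17).

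By complex, the median differences minus that of all genes were -0.02 for complex I, 0.04 for complex II, -0.093 for complex III, 0.13 for Cycs alone, 0.029 for complex IV and 0.0011 for ATP synthase. Between replicates the same quantity had an SD of 0.06, 0.068, 0.042, 0.21, 0.04 and 0.072 in that order. The median of complex III alone differed from 0 by more than that SD, and with the scan block it was -0.022, within that SD. With quantile normalization the value for complex III was -0.11. The values for complex II, complex IV and ATP synthase were then -0.11, -0.071 and -0.12. Each of these values was beyond the SD given above for its complex, which comes from the main scaling. Of 22 members with more than 1 kept probe, 10 had probes of both signs. Among them Ndufa5, an accessory subunit of complex I, gave 0.29 and -0.41.

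Calls depended on single arrays. Without FeMnSi 1, 16 members were higher and 2 were lower. Of all genes, 20.8% and 8.9% were then called too, so the members' counts are no more than that background. Without that array no FeMnSi array shares a scan with De-HA, so scaffold and scan cannot be told apart in that fit. Leaving out each of the other 5 arrays gave 0 higher and at most 1 lower. Calls over all 15535 genes dropped too in those fits. They fell to 123 to 288 higher and 94 to 247 lower, from 1003 and 666 in the main fit. The members added without FeMnSi 1 were Atp5b, Atp5g3, Atp5j, Cox6c, Cox7a2l, Ndufa4, Ndufa5, Ndufb4, Ndufs4, Ndufv2, Sdhb, Uqcr10, Uqcrfs1 and Uqcrh as higher and Sdhd as lower. Cox6a2 passed without FeMnSi 1 (adjusted p 0.0164) and without De-HA 2 (0.017), but not without any other array. Ndufa1 (0.0118) and Cox4i2 (0.0241) passed without FeMnSi 1 alone.

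**Figure D5:**
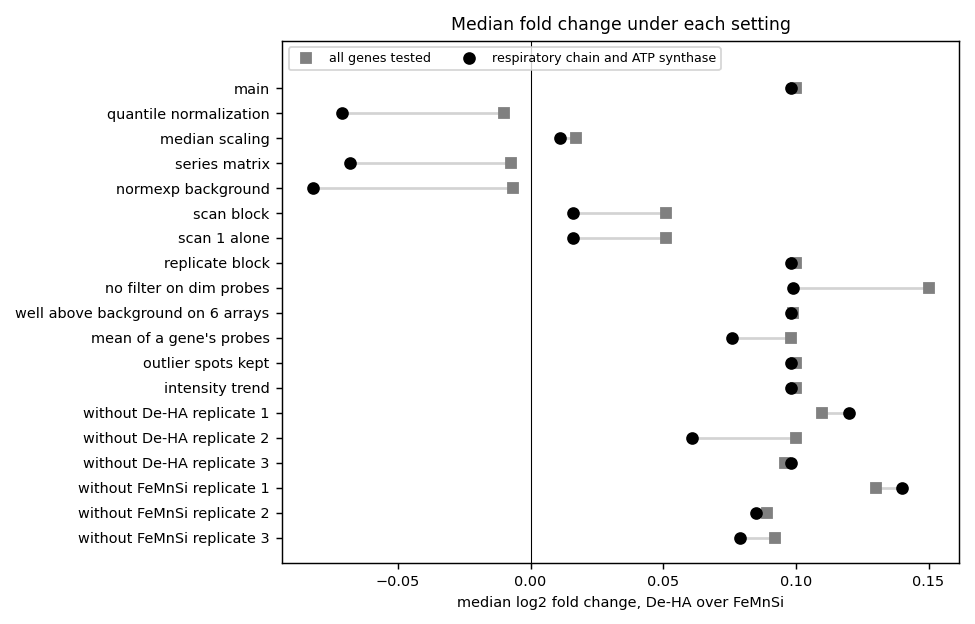
Median log2 difference, De-HA over FeMnSi, of the 83 members (circles; 82 with the filter on all 6 arrays) and of all genes tested (squares) under each way of processing. The members lie at 0.098 with the main processing, between -0.082 and -0.068 with quantile normalization, the authors' matrix or normexp, and at 0.016 with the scan block.

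Genes that serve the same complexes were read from fixed lists. Assembly factors help to build the complexes. Of 45 tested, 3 rose and 1 fell, against 6.46% and 4.29% of all genes, with a median of 0.068. Ndufaf5, a factor for complex I that modifies a core subunit, was at -0.93, -0.90 and -1.16 on De-HA and -1.78, -1.81 and -1.88 on FeMnSi. The difference of 0.83 (SE 0.10, adjusted p 0.00816 by limma) was 0.79 within scan 1 and 0.79 with quantile normalization. With the scan as a block the adjusted p was 0.0622. Ttc19, which acts on complex III, rose by 0.65 (adjusted p 0.0346), and Coa5, a factor for complex IV, by 0.45 (adjusted p 0.0393). Foxred1, a factor for complex I, fell by 0.42 (adjusted p 0.0482 by limma). With the scan as a block 0 of the assembly factors passed, and the adjusted p of Ttc19, Coa5 and Foxred1 was 0.225, 0.243 and 0.298.

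Of 16 regulators of mitochondrial genes, 1 rose, Mterf1a, a mitochondrial transcription termination factor, by 0.35 (adjusted p 0.0472 by limma). That call was lost with the scan as a block (0.186) and with quantile normalization (0.0627). Ppargc1a, a coactivator known for driving mitochondrial gene programmes, did not pass the filter on dim probes. In the citric acid cycle 0 of 24 genes passed in limma, and at an unadjusted p under 0.05 there were 2 higher and 3 lower. Idh3a, an enzyme of the cycle, differed by -0.28 and did not pass. In heme and iron-sulfur supply 1 of 19 rose, Ppox of heme synthesis (0.41, adjusted p 0.0474 by limma). The call of Ppox was also lost with the scan as a block (0.245) and with quantile normalization (0.0516). At an unadjusted p under 0.05, 2 of these 19 were higher and 5 lower. With quantile normalization, 2 genes of the cycle, 3 of heme and iron-sulfur supply and 4 assembly factors passed as lower on De-HA. Among the assembly factors, 3 passed as higher. Over all 15535 genes, 632 were higher and 975 lower with that normalization. Over all genes in the main fit, 6.46% rose and 4.29% fell. At an unadjusted p under 0.05, 22.8% were higher and 10.7% lower. Among 7 carriers for ADP, ATP and phosphate and related genes, 0 passed in limma and 2 were higher at an unadjusted p under 0.05, with a median of 0.17. Of 77 mitochondrial ribosomal protein genes 0 passed in limma, and 5 were higher and 4 lower at an unadjusted p under 0.05, with a median of -0.0026. Of 82 cytosolic ribosomal protein genes, 10 rose and 0 fell, and 58 were higher and 0 lower at an unadjusted p under 0.05. Their median of 0.33 was 0.18 within scan 1 and 0.03 with quantile normalization. With the scan as a block, and with quantile normalization, 0 of these 82 passed.

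The list of 7 hypoxia-linked respiratory genes includes Cox4i2. Bnip3, a mitochondrial protein that promotes removal of mitochondria, was at 5.68, 6.11 and 5.99 on De-HA and 5.21, 4.58 and 5.05 on FeMnSi. It rose by 0.98 (SE 0.19, adjusted p 0.028 by limma). Ndufa4l2, a relative of Ndufa4 known to be induced by low oxygen, was at -3.98, -3.78 and -4.05 on De-HA and -3.15, -3.34 and -3.37 on FeMnSi. It fell by 0.65 (SE 0.11, adjusted p 0.0196 by limma). So 2 of these genes rose and 1 fell, against 6.46% and 4.29% of all genes, and their median was -0.039. With the scan as a block the adjusted p of Bnip3 was 0.191 and that of Ndufa4l2 was 0.0613.

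Markers of other cells and of proliferation moved between the groups as well. Over all genes, 6.46% rose and 4.29% fell. Of 5 macrophage markers 2 rose and 1 fell, with a summed signal of 1.16 to 1.33 of the 75th percentile on De-HA and 0.816 to 1.01 on FeMnSi. Of the endothelial markers Kdr rose, while Cdh5 and Tek were well above background on 0 arrays. Pecam1, well above background on all 6 arrays, differed by 0.37 and did not pass (adjusted p 0.0602 by limma). The adipocyte markers Adipoq, Lep and Cidec were well above background on 0 arrays too. Plin1, the adipocyte marker tested, was well above background on 3 of 6 arrays. It differed by 0.29 and did not pass (adjusted p 0.167 by limma). Of 4 proliferation markers 3 fell, Ccnb1, Mki67 and Top2a, with a summed signal of 27.9 to 33.1 on De-HA and 38.5 to 39.2 on FeMnSi. The 10 osteoblast markers summed to 210 to 250 on De-HA and 179 to 209 on FeMnSi, with 4 that rose and 1 that fell. That sum is led by the brightest of them, Col1a2 and Col1a1, which did not pass (adjusted p 0.0766 and 0.0771 by limma). The 4 that rose, Alpl, Ibsp, Runx2 and Sp7, lay below the 75th percentile of the arrays. With the scan as a block, Spp1, the osteoblast marker that fell, still passed (adjusted p 0.0485 by limma), and all other calls among these markers were lost. The block gave adjusted p of 0.146 for Kdr and of 0.124, 0.163 and 0.0687 for Ccnb1, Mki67 and Top2a. The part of these markers in the differences of the subunit genes was not tested.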

How the data were processed

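Each sample's Cy3-labelled RNA was read on 1 Agilent array. The scanner software was Feature Extraction 11.0.1.1, according to the submitters' processing notes. The deposited intensity values are processed signals per spot, background-subtracted per the file headers and not scaled between arrays. The deposited series matrix holds log2 values whose columns share a median of 5.77, as quantile-normalized values would; how the authors made it is not given in the sources used here. Each array carried 44397 spots, 1377 of them controls. Log2 signals were scaled to the 75th percentile, outlier spots were left out, and probes well above background on at least 3 arrays were kept. The brightest kept probe stood for a gene. Probes were named by RefSeq accession (GRCm38.p6). The test was lmFit and eBayes of limma 3.58.1 (R 4.3.3), with Benjamini-Hochberg adjustment. Python 3.11.15 with matplotlib 3.10.9 made the figures.

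Alternatives were quantile normalization, median scaling, the matrix, normexp (offset 50, on median spot and background signals, since the files hold no mean signals), the scan or replicate number as a block, scan 1 alone, other filters on probes, a mean over a gene's probes, outlier spots kept, an intensity trend, and each array left out. The script was tested on simulated data. Arrays give no counts, so the number of arrays limits the precision.

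The members and lists were chosen with earlier results of these data known. Named were members past the threshold, or the 3 smallest p of a complex where none passed, isoform families, core subunits of complex I, complex II, Cycs, the F1 head, and up to 4 genes per list. Ndufa4, Ndufa10, Ndufb11 and other accessory subunits of complex I, Uqcrc1, Uqcrc2, Cyc1, Cox5a, Cox5b, Cox6c, members of Cox7 and Cox8 by probe, and the promoters shown were chosen after values were seen. Results for 2 genes are not reported here.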

Additional observations from a re-analysis of the deposited data

How the results depend on the processing

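Main values were 2 members higher and 1 lower, a median of 0.098, and -0.0054 relative to all genes; complex medians are relative to all genes. Quantile normalization and the authors' matrix each gave 1 member higher, medians of -0.071 and -0.068, -0.061 relative to all genes, -0.11 for complex II, -0.071 for complex IV and -0.12 for ATP synthase. Over all 15535 genes, quantile normalization gave 632 higher and the matrix 639, against 1003 in the main fit. Median scaling gave 0 members higher, against 463 of all genes, and a members' median of 0.011. With normexp, 1 member was higher and 4 were lower (Cox6a2, Atp5g1, Cox4i1 and Ndufa12), against 758 and 1101 of all 15535 genes. The members' median was then -0.082, and relative to all genes -0.075. Complex II was at -0.097, complex IV at -0.067 and ATP synthase at -0.11. The scan block and scan 1 alone, which have the same estimates, each gave 0 higher and 0 lower, a median of 0.016, complex II at -0.055, complex III at -0.022 and cytochrome c at -0.089. Under the scan block, 102 of all genes were higher and 78 lower. Without a filter on dim probes 0 members were higher, against 286 of the 20590 genes then tested. Complex III was at -0.14. Complex IV was at -0.019 over the 16 members otherwise tested (0.0065 with Cox7b2 and Cox8c, which that setting adds). The mean of a gene's probes gave -0.033 for complex II and -0.11 for cytochrome c. An intensity trend gave 5 members higher, against 1488 of all 15535 genes. The cause of these shifts was not tested. Leaving out 1 array at a time gave 0 to 16 members higher, 0 to 2 lower, and complex IV at -0.017 to 0.031. Over all genes these fits gave 123 to 3229 higher and 94 to 1382 lower. The 16 members higher came without FeMnSi 1, where scan and scaffold cannot be told apart.

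The replicate block gave 0 members higher and 1 lower, against 411 and 282 of all 15535 genes. Deviations of same-numbered arrays correlated at 0.007, -0.11 and 0.12, so the numbers were not taken to pair the samples. A member that changed sign while past the threshold in neither fit was not counted as reversed; of 83 members, 40 changed sign with quantile normalization, 21 with median scaling, 39 with the matrix, 39 with normexp and 29 with the scan block. With 3 arrays a group and a scan time shared by 4 arrays, differences near 0.1 are below what these arrays resolve.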
